A study of Mus musculus with 24 samples.

Results

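The pentose phosphate pathway and the enzymes that feed the cytosolic NADPH pool were followed through 10 genes, chosen by their symbol in the deposited expression table of 19895 entries. G6pdx, Pgls and Pgd form the oxidative branch, H6pd is its counterpart in the endoplasmic reticulum, Rpia, Rpe, Tkt and Taldo1 form the non-oxidative branch, and Idh1 and Nadk supply NADPH and NADP by other routes. Of these, 9 had an entry of their own and were among the 11439 genes tested. Rpe was listed only in an entry shared with Kansl1l, a neighbouring gene on chromosome 1 of the mouse genome, and its reads cannot be separated from those of Kansl1l. It is therefore described as the shared entry and is not counted among the 9 tested genes.

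In the oxidative branch, glucose 6-phosphate is oxidised in steps that reduce NADP to NADPH and yield ribulose 5-phosphate. The non-oxidative branch interconverts sugar phosphates, so that ribose for nucleotides and intermediates of glycolysis can be exchanged in either direction. NADPH is used to keep glutathione and thioredoxin reduced and to build fatty acids and sterols, and pancreatic ductal tumours are known to rely on it for redox balance.

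The measurements came from mouse pancreatic organoids, which are cultures of ductal cells grown in a basement membrane gel. N organoids were grown from ducts of wildtype mice, and KP organoids from tumours with engineered alleles that the controls did not carry, p53 R172H among them. Each type received vehicle (DMSO) or 10 nM CR-31, a rocaglate inhibitor of the RNA helicase eIF4A labelled CR1-31-b, for 1 h, and all cultures were kept without EGF and N-acetylcysteine and were given cycloheximide before lysis. From each of 12 lysates, mRNA bound by 3 or more ribosomes, here polysome mRNA, and total mRNA were sequenced, so that there were 8 groups of 3 libraries. The comparisons were KP with N, CR-31 with vehicle in each type, and the ratio of polysome to total mRNA, which asks whether a gene's mRNA is loaded with ribosomes beyond its abundance. In the study's tumour-bearing mice such alleles were turned on by Pdx1-Cre, which is active in the pancreatic epithelium, and whether these KP organoids came from such mice is not given in the sources used here. The organoids hold duct-derived epithelium without the stroma of a tumour. No label names the mice behind the replicates, so p-values measure the spread between these cultures.

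Between 47308461 and 267463046 reads were counted per library. All 10 markers of duct and simple epithelium were detected, with a summed level of 6549 to 14930 CPM (read counts scaled to library size with TMM factors). The endocrine markers Ins1, Ins2 and Gcg had no count in any library. Acinar markers summed to 21.9 to 32.1 CPM and overlapped between N and KP, but 18.1 to 26.7 CPM of this was an entry that Cela2a shares with Casp9, whose reads cannot be separated. Of the other acinar markers Cela1 had at most 5.25 CPM and Cpa1 was at 0. Immune markers summed to 2.07 to 33.9 CPM, fibroblast markers to 0.0541 to 1.08 CPM and endothelial markers to at most 0.345 CPM. The column headers hold numbers that were taken as sequencing lanes. No such lane held both N and KP libraries, so organoid type and lane cannot be told apart.

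The polysome libraries of 4 lysates were not most like the total library of the same label. Across the tested genes, the deviations of each polysome library from the mean of its organoid type and fraction were correlated with those of the total mRNA libraries, which share the lysate where the labels do. In 8 of 12 lysates the polysome library was most like its own total library (r of 0.655 to 0.911). In replicate 3 of N, the library labelled vehicle polysome had an r of 0.818 with the total library labelled CR-31 and of 0.348 with that labelled vehicle. The library labelled CR-31 polysome of that replicate had an r of 0.714 with the total library labelled vehicle and of 0.331 with its own. In replicate 1 of KP, the CR-31 polysome library had an r of 0.209 with its own total library and of 0.688 with that labelled vehicle. In replicate 2 of N, the vehicle polysome library had an r of 0.658 with its own total library and of 0.702 with that labelled CR-31. Labels were kept as deposited, and for the calls and the values that moved most, the fits without replicate 3 of N or replicate 1 of KP are given too.

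Per transcript length, the non-oxidative enzymes Tkt and Taldo1 were the most abundant of the 10. In total mRNA of vehicle-treated KP organoids, Tkt, a transketolase, had 315 ± 31.5 RPKM (reads per kilobase of transcript scaled to library depth, mean ± SD, n = 3) and Taldo1, the transaldolase, 230.5 ± 29.8 RPKM. Pgd followed with 154 ± 15.4 and Pgls with 140.5 ± 31.3 RPKM, and the ranges of their libraries overlapped. Idh1 had 110.4 ± 13.5, Nadk 87.1 ± 8.5 and G6pdx 71 ± 8.15 RPKM, and the libraries of neighbours in this order did not overlap except those of Idh1 with Pgls. H6pd, Rpia and the shared Rpe entry were lowest, with 26.4 ± 2.32, 25.5 ± 4.94 and 22.7 ± 2.81 RPKM, and overlapped with each other. In all 8 groups Tkt ranked first, Taldo1 second and G6pdx seventh of the 10 by mean RPKM. Pgls ranked above Pgd in 6 of the 8 groups, and below it in total mRNA of KP organoids.

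**Figure D1:**
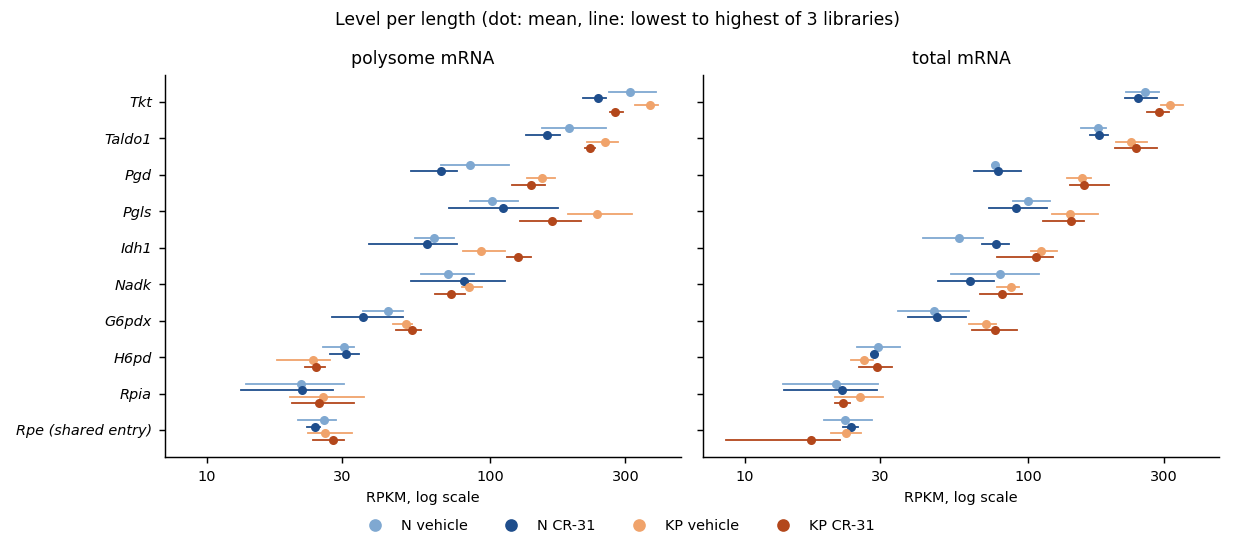
Level per transcript length of the 10 genes, as RPKM on a log axis, in polysome (left) and total mRNA (right). Dots are means and lines run from the lowest to the highest of 3 libraries of each group. Tkt and Taldo1 lie highest in every group, and the KP groups lie to the right of the N groups for Pgd.

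The rate-limiting enzyme of the pathway, glucose-6-phosphate dehydrogenase, is encoded in mouse by G6pdx (chrX:74409483-74429194 on the minus strand of GRCm38, GENCODE M21). In polysome mRNA it had 126, 93.7 and 150.0 CPM in replicates 1, 2 and 3 of vehicle-treated N and 134, 165 and 159.6 CPM in KP organoids, and these groups overlapped (log2 fold change 0.31, SE 0.24, adjusted p = 0.39). In total mRNA it had 176, 131 and 113 CPM in N and 216, 230.5 and 184 CPM in KP. Every KP library was above every N library there, and the gene was called higher in KP (log2 fold change 0.58, SE 0.23, adjusted p = 0.147). A call here means an adjusted p under 0.25, the threshold of the study, in edgeR's quasi-likelihood test with Benjamini-Hochberg adjustment over all 11439 genes. Without replicate 3 of N, G6pdx was not called in total mRNA, at 0.45 (SE 0.25, adjusted p = 0.369, 0.0166 to 0.389 over all alternatives), and was called in polysome mRNA, at 0.49 (SE 0.24, adjusted p = 0.164, 0.149 to 0.749 over all alternatives). The call in total mRNA held in 10 of 18 fits that left out a lysate or a replicate number, and was lost without vehicle replicate 2 or 3 of N or 1 or 2 of KP. G6pdx has a near-identical retrocopy, G6pd2, which stayed at or below 0.187 CPM in the vehicle groups. Reads with several matches were discarded, so reads common to both copies are missing.

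Pgls, the lactonase of the second step (chr8:71592176-71601092, plus strand), differed most between the organoid types in polysome mRNA under vehicle. It had 87.3, 75.6 and 129.6 CPM in N and 210.4, 334 and 193 CPM in KP. All KP libraries were above all N libraries, a 2.52-fold difference (log2 fold change 1.33, SE 0.39, adjusted p = 0.042). In total mRNA the values were 88.2, 91 and 132 CPM in N and 121, 179.7 and 123 CPM in KP, where replicate 3 of N lay above 2 of the KP libraries and the gene was not called (log2 fold change 0.45, SE 0.27, adjusted p = 0.332). Without replicate 3 of N it was called in both fractions, at 1.60 (SE 0.29, adjusted p = 0.00699, 0.000508 to 0.164 over all alternatives) in polysome and 0.65 (SE 0.23, adjusted p = 0.161, 0.0465 to 0.728 over all alternatives) in total mRNA.

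Pgd, which encodes the second NADPH-forming dehydrogenase of the branch (chr4:149149991-149166771, minus strand), was called higher in KP organoids in both fractions. Polysome mRNA had 164, 149.9 and 301 CPM in N and 426, 356 and 389.5 CPM in KP, without overlap (log2 fold change 0.93, SE 0.29, adjusted p = 0.0477). Total mRNA had 189, 192 and 209 CPM in N and 408, 408 and 347 CPM in KP, a 1.97-fold difference with N libraries close together (log2 fold change 0.98, SE 0.21, adjusted p = 0.0175). Pgd was called in both fractions in each of the 18 fits that left out a lysate or a replicate number, as was Pgls in polysome mRNA. H6pd, the enzyme of the endoplasmic reticulum that joins both first steps (chr4:149979475-150009023, minus strand), was not called. Its polysome mRNA had 121, 149 and 174 CPM in N and 90.1, 148 and 137 CPM in KP (log2 fold change -0.24, SE 0.24, adjusted p = 0.508), and total mRNA gave a log2 fold change of -0.21 (SE 0.20). It was the 1 tested member with a fold change below 0 in both fractions.

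Several of the 10 genes, G6pdx and Pgd among them, are known targets of NRF2, a factor that binds antioxidant response elements. RefSeq windows on GRCm38.p6 of 250 bases before to 50 after each start site were therefore searched on both strands for the core of this element, TGACNNNGC, and for the E-box CACGTG, which reads the same on both strands and does not overlap with it. All 10 genes had a window, 13 in all. The antioxidant response element core was found in 2 of the 13 windows (15.4%), and in 12.4% of the 32851 windows of all genes. The E-box was found in 1 of 13 (7.69%), near Nadk, and in 7.15% of all windows. The 3 matches are shown 5′ to 3′ on the strand of the gene, with the match in capitals. For G6pdx it lies 57 bases before the start site at chrX:74428918-74428947 and on the opposite strand, for Pgd 3 bases after one of its 2 start sites at chr4:149166060-149166089, and for Nadk 40 bases before one of its 2 start sites at chr4:155563763-155563792.
G6pdx: aggcgggtcaGCTCAGTCAaagcacacgcc
Pgd: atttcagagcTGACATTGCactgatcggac
Nadk: cgccgctctcccCACGTGccctgcagcgca
These are matches of letters and no binding was measured. The window of Pgls held neither motif.

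In the non-oxidative branch, Taldo1 (chr7:141392199-141402968, plus strand) had 212, 195 and 379 CPM in polysome mRNA of N and 376, 429 and 323 CPM in that of KP. Replicate 3 of N lay among the KP libraries and the other 2 far below, and the gene was called higher in KP (log2 fold change 0.52, SE 0.26, adjusted p = 0.19). Its total mRNA had 261, 276 and 243 CPM in N and 319, 384 and 296 CPM in KP, which did not overlap but did not pass the threshold (log2 fold change 0.36, SE 0.19, adjusted p = 0.272). Tkt (chr14:30548359-30574720, plus strand) had 952, 853 and 1442 CPM in polysome mRNA of N and 1178, 1495 and 1441 CPM in KP, again with replicate 3 of N at the level of KP (log2 fold change 0.34, SE 0.23, adjusted p = 0.328). Without that replicate, Taldo1 was at 0.90 (SE 0.18, adjusted p = 0.0105, 0.0105 to 0.444 over all alternatives) and Tkt at 0.62 (SE 0.17, adjusted p = 0.0325, 0.0325 to 0.652 over all alternatives), and both were called. The call of Taldo1 held in 10 of 18 such fits, and was lost without vehicle replicate 1 or 2 of N or 1 or 2 of KP (highest adjusted p = 0.444).

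Rpia, the isomerase that makes ribose 5-phosphate (chr6:70765720-70792232, minus strand), spread widely among N cultures, with 56, 24.5 and 42.1 CPM in polysome mRNA against 71.4, 41.6 and 43.7 CPM in KP (log2 fold change 0.35, SE 0.37, adjusted p = 0.535). Total mRNA gave 0.25 (SE 0.29). Rpe, the epimerase that makes xylulose 5-phosphate (chr1:66700831-66719805, plus strand), was read only in the entry it shares with Kansl1l. That entry had 80.7, 85 and 67.4 CPM in polysome mRNA of N and 92.7, 69.3 and 70.4 CPM in KP, which overlapped. In a fit that kept entries of several symbols, added after the data were seen, its log2 fold changes were -0.016 (SE 0.18) in polysome and -0.10 (SE 0.27) in total mRNA.

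Idh1, the cytosolic isocitrate dehydrogenase that forms NADPH outside the pathway (chr1:65158616-65186500, minus strand), was called higher in KP in both fractions. Polysome mRNA had 137, 116 and 185 CPM in N and 270.2, 203 and 209 CPM in KP (log2 fold change 0.64, SE 0.25, adjusted p = 0.0975). Total mRNA had 162, 146 and 113 CPM in N and 297, 251 and 249.8 CPM in KP, a 1.9-fold difference (log2 fold change 0.92, SE 0.20, adjusted p = 0.018). No KP library overlapped with an N library in either fraction. The polysome call was lost without vehicle replicate 2 of N or 1 of KP (highest adjusted p = 0.338), and the call in total mRNA held in 18 of 18 such fits. Nadk, the cytosolic NAD kinase that makes NADP (chr4:155562378-155591001, plus strand), had 175, 263 and 237 CPM in polysome mRNA of N and 264, 332 and 273 CPM in KP. The lowest KP library lay just above the highest N library, and the gene was not called (log2 fold change 0.36, SE 0.30, adjusted p = 0.425). In total mRNA, where replicate 3 of N had 404 CPM, the highest of the 24 libraries, its log2 fold change was 0.081 (SE 0.30). Leaving out replicate 3 of N moved this to 0.44 (SE 0.29, adjusted p = 0.449, 0.449 to 0.979 over all alternatives), still not called.

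**Figure D2:**
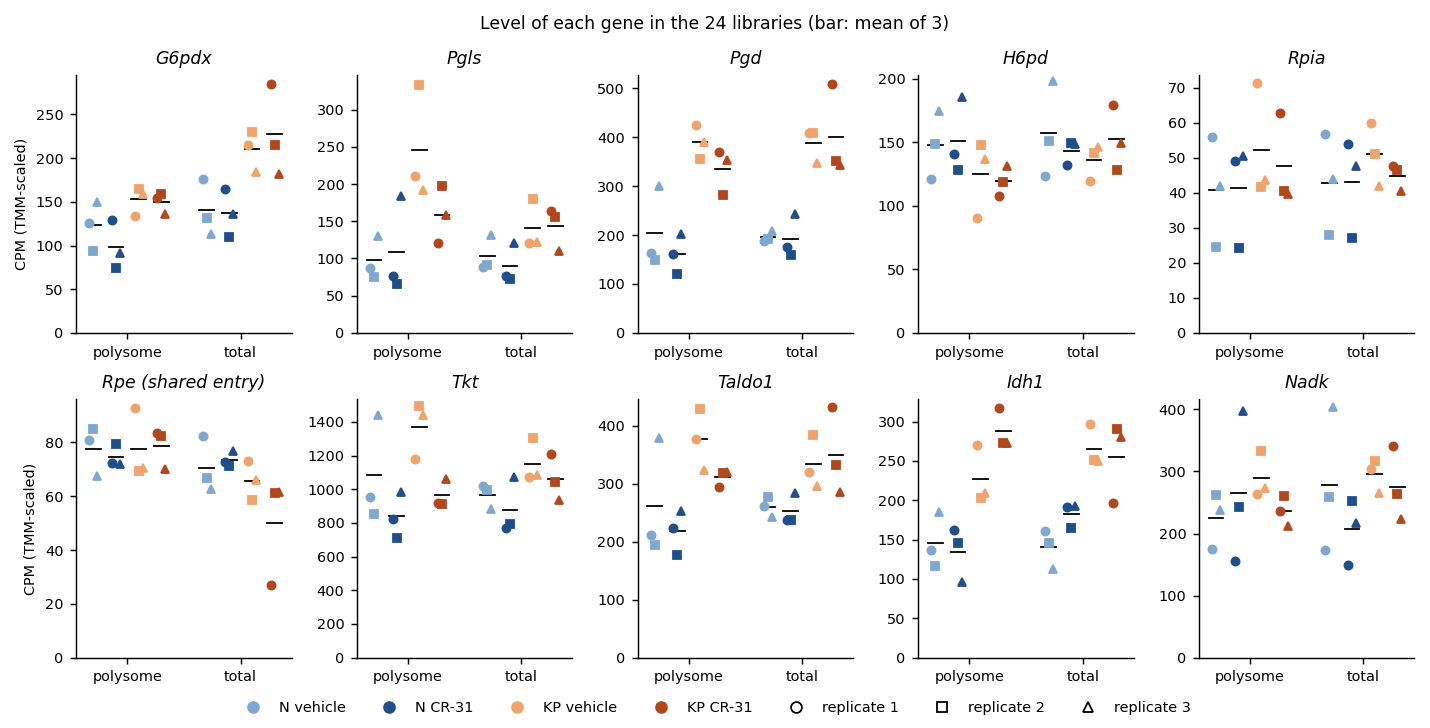
CPM of each gene in the 24 libraries on axes from 0, with polysome and total mRNA side by side, 1 symbol shape per replicate number and bars at the mean of 3. All KP vehicle libraries lie above all N vehicle libraries for Pgd and Idh1 in both fractions, while replicate 3 of N (triangles) lies near the KP level for Tkt and Taldo1 in polysome mRNA.

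In vehicle-treated organoids, 4 of the 9 tested genes (Pgls, Pgd, Taldo1 and Idh1) were thus called higher in KP in polysome mRNA and 0 lower. Of all tested genes 19.4% were called higher and 24% lower. At a threshold of 0.05, Pgls and Pgd passed, where 7.18% of all genes were called higher. The fold change was above 0 in 8 of 9, beside 45.49% of all genes, with a median of 0.36 against -0.076 over all genes. In total mRNA 3 of 9 (G6pdx, Pgd and Idh1) were called higher and 0 lower, beside 13.4% and 15.4% of all genes. Pgd and Idh1 passed 0.05, beside 3.85% of all genes called higher. The median was 0.36 against -0.025. Without replicate 3 of N, 6 of 9 were called higher in polysome mRNA (those 4, G6pdx and Tkt) and 3 in total mRNA (Pgls, Pgd and Idh1), beside 25.2% and 8.96% of all genes. Without replicate 1 of KP, Pgls and Pgd were called higher in polysome mRNA and Pgd and Idh1 in total mRNA, beside 11.7% and 8.31% of all genes. The same genes were called without replicate 2 of N, beside 14% and 9.45%. In a fit with replicate number as a blocking factor, 8 were called higher and H6pd lower in polysome mRNA and 6 higher in total mRNA, beside 31.7% and 28.1% of all genes called higher and 36.7% called lower in polysome mRNA. That block takes out differences between cultures of a type. Its p-values for KP against N thus leave out this spread, and would be too low if the cultures were independent. The fit without the block counts vehicle and CR-31 libraries of the same replicate number as independent, although they pair. In bulk samples, fewer cells of a type and less RNA per cell cannot be told apart. Fibroblast markers were lower in KP (0.0814 to 0.145 CPM against 0.477 to 0.894 CPM in polysome mRNA) and near 0 in both. Immune markers were lower in KP without overlap in total mRNA under vehicle (2.30 to 3.95 against 5.66 to 17.8 CPM) and under CR-31 (2.07 to 4.86 against 6.32 to 28.5 CPM) and in polysome mRNA under CR-31 (2.08 to 3.66 against 6.75 to 15.8 CPM), and overlapped in polysome mRNA under vehicle. Endothelial markers, near 0 throughout, were lower in KP without overlap in polysome mRNA under vehicle (0 to 0.0291 against 0.0892 to 0.345 CPM) and CR-31 (0 to 0.0228 against 0.0505 to 0.155 CPM). Duct markers were lower in KP without overlap in total mRNA under CR-31 (9763 to 10930 against 11670 to 12860 CPM) and overlapped in the other 3 comparisons. The part of these markers in the results was not tested.

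**Figure D3:**
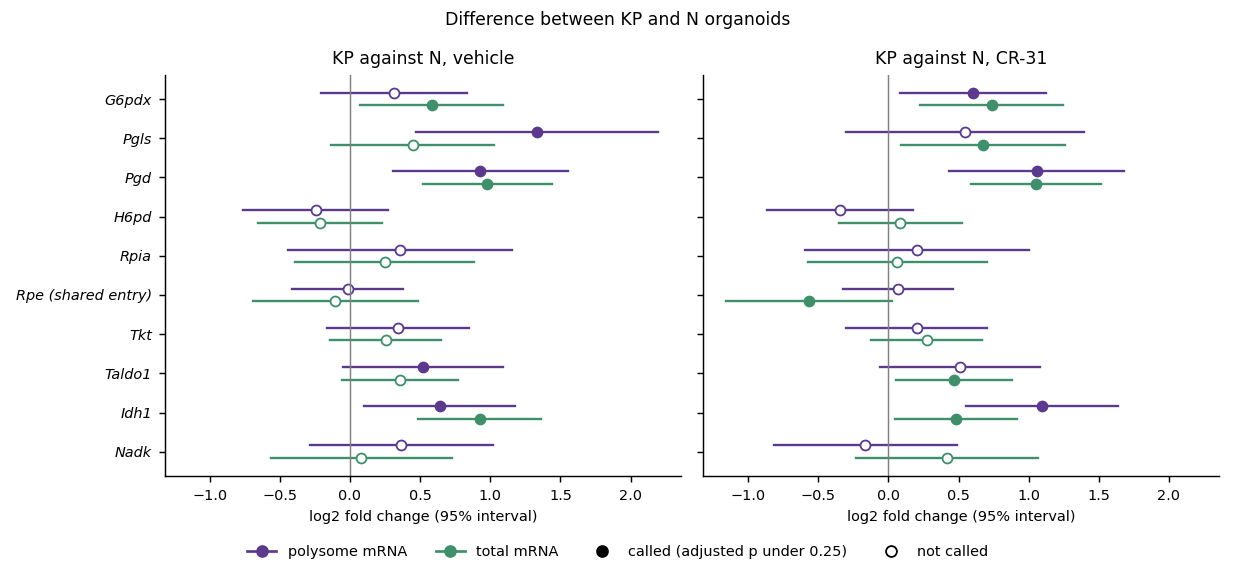
Log2 fold change of KP against N for each gene with its 95% interval, in polysome and total mRNA, under vehicle (left) and CR-31 (right). Filled dots were called. Pgd and Idh1 are filled in both fractions in both panels, and the interval of Pgls in polysome mRNA lies farthest to the right under vehicle.

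Other genes around the pathway were taken from 3 lists. Of 16 other genes of the pathway and its branch points, 12 were tested, and in polysome mRNA under vehicle 3 were called higher in KP and 1 lower, beside 19.4% and 24% of all genes. Rbks, the ribokinase, rose, from 2.36 to 4.96 CPM in N to a range of 7.38 to 8.28 CPM in KP (log2 fold change 1.04, SE 0.35, adjusted p = 0.0636). Dera, an aldolase of deoxyribose phosphate, rose, from 35.1 to 47.4 CPM in N to a range of 68.7 to 81.8 CPM in KP (log2 fold change 0.78, SE 0.19, adjusted p = 0.0206). Prps2, a synthetase of the ribose donor for nucleotides, rose by 0.32 on the log2 scale. Hk2, a hexokinase at the entry, fell, from 24.2 to 49.2 CPM in N to a range of 13.3 to 19.5 CPM in KP (log2 fold change -1.10, SE 0.47, adjusted p = 0.125). In total mRNA 2 of the 12 were called, both higher (Hk1, 0.75, and Dera, 0.56), beside 13.4% of all genes. The list's median log2 fold change was 0.17 in polysome and 0.48 in total mRNA, where all genes had -0.076 and -0.025.

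The second list, called NADPH sources below, held 13 other enzymes around NADPH and the NADP pool. Whether each of them forms NADPH in these cultures was not measured. Of the 13, 12 were tested, and the same 2 genes were called higher in both fractions and 0 lower. That share was near that of all genes called higher (19.4% in polysome and 13.4% in total mRNA). Me2, a mitochondrial malic enzyme, had 12.5 to 22.2 CPM in polysome mRNA of N and 27.4 to 45.1 CPM in KP (log2 fold change 1.14, SE 0.29, adjusted p = 0.0257). Mthfd1, a folate enzyme of the cytosol with an NADPH-forming step, had 21.9 to 39.5 CPM in total mRNA of N and 64.7 to 85.2 CPM in KP (log2 fold change 1.33, SE 0.24, adjusted p = 0.00939). The list's median was 0.13 in polysome and 0.36 in total mRNA. Of 20 enzymes that use NADPH, 16 were tested, with 4 called higher and 1 lower in polysome mRNA and 5 higher and 1 lower in total mRNA, beside the same shares of all genes called higher and 24% and 15.4% called lower. Among the higher calls in polysome mRNA were Cbr3, a carbonyl reductase (1.25), Dhcr7, of sterol synthesis (0.97) and Gsr, the glutathione reductase (0.84). Duox2, an oxidase that turns NADPH into hydrogen peroxide, was called lower (log2 fold change -4.07, SE 1.44, adjusted p = 0.0745), but its N libraries spread from 0.557 to 69.5 CPM and the lowest of them lay below the KP range of 0.878 to 3.89 CPM. The list's median was 0.31 in polysome and 0.49 in total mRNA.

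Under CR-31, KP and N were compared with the same fits, in other libraries than those of the vehicle groups. These libraries pair with the vehicle ones by replicate number within each type, so the comparisons under vehicle and CR-31 are not independent. Pgd had 160.5, 121 and 203 CPM in polysome mRNA of N and 370.4, 283 and 353 CPM in KP, without overlap (log2 fold change 1.06, SE 0.29, adjusted p = 0.0506). Idh1 had 163, 145 and 96 and 317, 273 and 272 CPM, without overlap and with the largest fold change of the 9 in this comparison (log2 fold change 1.09, SE 0.25, adjusted p = 0.0275). G6pdx had 129, 74.8 and 91.9 and 154, 159 and 136 CPM (log2 fold change 0.60, SE 0.24, adjusted p = 0.157), a call that was lost without CR-31 replicate 2 of N or 1 or 2 of KP. These 3 of 9 were called higher and 0 lower, beside 11.2% and 13.7% of all genes, and Idh1 passed 0.05, beside 2.43% called higher. Pgls had 76.9, 65.9 and 184 CPM in N and 121, 197 and 158 CPM in KP, with replicate 3 of N among the KP libraries (log2 fold change 0.55, SE 0.39, adjusted p = 0.449). In the fit without that replicate Pgls was called, at 1.16 (SE 0.28, adjusted p = 0.0425, 0.0211 to 0.734 over all alternatives), and leaving out only its CR-31 lysate gave 1.17. DESeq2 called Taldo1 as well, 4 of 9 beside 12.5% of all genes called higher by it.

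In total mRNA under CR-31, 5 of 9 were called higher in KP and 0 lower, beside 17.5% and 22.2% of all genes. All 9 fold changes were above 0, as were those of 44.98% of all genes. Pgd again led with 175, 160.1 and 244 CPM in N and 509, 351 and 343 CPM in KP (log2 fold change 1.05, SE 0.21, adjusted p = 0.0136), and was the 1 member to pass 0.05, beside 4.68% of all genes. G6pdx (0.74), Pgls (0.67), Taldo1 (0.47) and Idh1 (0.48) had adjusted p-values of 0.0651, 0.121, 0.128 and 0.135. The calls of Pgls and Taldo1 were lost without CR-31 replicate 1 of KP, that of Pgls also without replicate 2 of N, and that of Idh1 without CR-31 replicate 2 of KP. Without replicate 3 of N, 6 of 9 (G6pdx, Pgls, Pgd, Tkt, Taldo1 and Idh1) were called higher in each fraction, beside 16.9% of all genes in polysome and 12.6% in total mRNA. Without replicate 1 of KP, Pgd and Idh1 were called in each, beside 3.32% and 6.92%. With the replicate block, 6 were called higher and H6pd lower in polysome mRNA, beside 29% called higher and 29.4% lower. Of the lists, 4 of 12 other pathway genes, 2 of 12 NADPH sources and 2 of 16 NADPH users were called higher and 0 lower in polysome mRNA, beside 11.2% and 13.7% of all genes. In total mRNA 3, 2 and 5 were called higher and 1 user (Duox2) lower, beside 17.5% and 22.2% of all genes. Mthfd1, Me2, Dera, Rbks, Hk1, Dhcr7 and Blvra, the biliverdin reductase, were called higher in both fractions under CR-31, Prps2 in polysome mRNA, and Cbr3, Gsr and Fasn, the fatty acid synthase, in total mRNA. Gsr, and Blvra in total mRNA, were named after their values were seen. The shared Rpe entry, which is not among the 9, had 72.7, 71.2 and 76.6 CPM in total mRNA of N and 26.9, 61.3 and 61.5 CPM in that of KP, where replicate 1 stood far below the others. No KP library reached an N library, and the entry was called lower in the fit that kept entries of several symbols (log2 fold change -0.57, SE 0.27, adjusted p = 0.185). That call was lost without CR-31 replicate 1 of KP, at -0.26 (SE 0.16, adjusted p = 0.411), and without replicate 1 of KP altogether (adjusted p = 0.447), fits added after seeing the data.

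Whether polysome mRNA differed beyond total mRNA was tested as the interaction of fraction and organoid type, with the lysate as a block, which is called translational efficiency here. No member was called by edgeR (of all genes 0% were), and 1 of 9, Pgls, had an unadjusted p under 0.05, as had 11.3% of all genes. The log2 ratio of polysome to total mRNA of Pgls was -0.015, -0.27 and -0.021 in the N lysates and 0.80, 0.89 and 0.65 in the KP lysates, without overlap. The difference was 0.88 (SE 0.26, unadjusted p = 0.005, adjusted p = 0.434). DESeq2 called Pgls at 0.91 (adjusted p = 0.201), 1 of 9 beside 1.23% of all genes called higher by it, and the regression of polysome on total mRNA called 0 members. Over all alternatives its adjusted p ran from 0.08 to 0.799.

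Replicate 3 of N bore on this comparison. For Tkt the N lysates had ratios of -0.10, -0.22 and 0.71, for Taldo1 -0.30, -0.50 and 0.64, and for Pgd -0.20, -0.36 and 0.53, with the third value far from the others. For Nadk they were 0.0084, 0.019 and -0.77 under vehicle and 0.058, -0.057 and 0.87 under CR-31, so that replicate 3 stood apart in opposite directions in the 2 treatments. Without that replicate, 3 of 9 were called higher in KP, beside 20% of all genes. They were Pgls at 0.94 (SE 0.24, adjusted p = 0.08, 0.08 to 0.799 over all alternatives), Taldo1 at 0.59 (SE 0.20, adjusted p = 0.105, 0.105 to 0.99 over all alternatives) and Tkt at 0.43 (SE 0.18, adjusted p = 0.159, 0.159 to 0.997 over all alternatives).

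**Figure D4:**
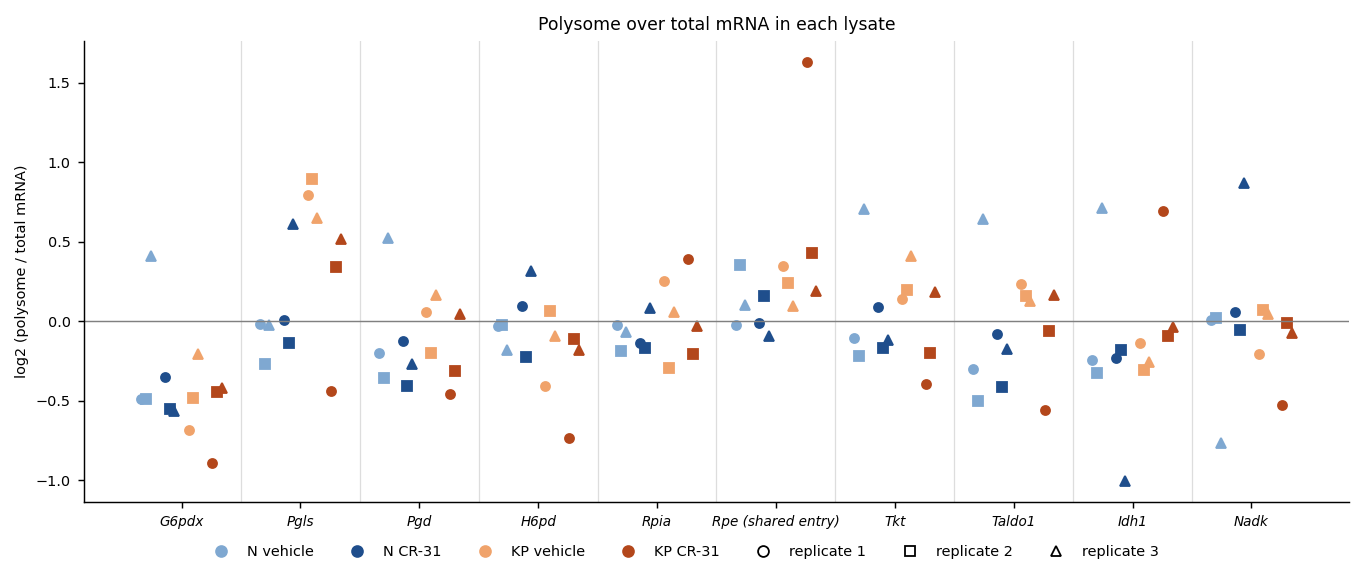
Log2 ratio of polysome to total mRNA of each gene in the 12 lysates, with 1 symbol shape per replicate number. Replicate 3 of N (blue triangles) stands apart under vehicle for G6pdx, Pgd, Tkt, Taldo1, Idh1 and Nadk, and under CR-31 for Pgls, Idh1 and Nadk, and the KP vehicle lysates of Pgls lie at 0.80, 0.89 and 0.65.

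Within vehicle-treated KP organoids, Pgls was called higher in polysome than in total mRNA (log2 fold change 0.78, SE 0.19, adjusted p = 0.056) and G6pdx lower (log2 fold change -0.46, SE 0.18, adjusted p = 0.161), in a comparison where 14.2% of all genes were called higher and 13.3% lower. The ratios of G6pdx were -0.69, -0.48 and -0.20, below 0 in 3 of 3 lysates. Both calls were lost without vehicle replicate 1 or 2 of KP and without replicate 2 or 3 of KP altogether. That of G6pdx was also lost without vehicle replicate 3 of KP, replicate 1 of KP or replicate 1 of N. In N organoids 0 of 9 were called by edgeR or DESeq2, with 0 at an unadjusted p under 0.05, beside 8.83% of all genes called higher and 6.36% lower. G6pdx had -0.49, -0.49 and 0.41 there. Without replicate 3 of N, G6pdx (-0.51), Taldo1 (-0.42) and Pgd (-0.30) were called lower in polysome mRNA, beside 20.7% of all genes. Of the lists, 5 of 12 other pathway genes, 4 of 12 NADPH sources and 4 of 16 NADPH users were called lower in polysome than in total mRNA in KP, and 0, 0 and 2 were called higher. Among those lower were Hk2 (-0.56), Glud1, the glutamate dehydrogenase (-0.50), and Nqo1, a quinone reductase (-0.54), and Cbr3 was higher (0.53).

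The effect of CR-31 was read within each organoid type. In polysome mRNA of KP organoids 0 of 9 members were called by edgeR or DESeq2, as were 0% of all genes, and 1 member, Tkt, had an unadjusted p under 0.05, beside 3.25% of all genes. Tkt had 1178, 1495 and 1441 CPM under vehicle and 919.5, 912 and 1062 CPM under CR-31. These did not overlap, and the log2 ratio was -0.36, -0.71 and -0.44 in the 3 replicates (log2 fold change -0.51, SE 0.23, unadjusted p = 0.049, adjusted p = 1). Pgls had 210.4, 334 and 193 CPM under vehicle and 121, 197 and 158 CPM under CR-31, with log2 ratios of -0.80, -0.76 and -0.28 (-0.63, SE 0.39, 95% interval -1.48 to 0.22). The replicate numbers pair vehicle with CR-31 within a type, and with that block both were called lower, Pgls at -0.61 (SE 0.19, adjusted p = 0.2, 0.2 to 1 over all alternatives) and Tkt at -0.50 (SE 0.15, adjusted p = 0.2, 0.2 to 1 over all alternatives), 2 of 9 beside 8.98% of all genes. For replicate 2 of N and of KP, vehicle and CR-31 libraries were in different lanes, so lane and treatment cannot be told apart there. In a blocked fit without replicate 1 of KP, added after seeing the data, 0 of 9 were called and 0.00874% of all genes were called lower, with Pgls at -0.52 (SE 0.26, adjusted p = 0.658) and Tkt at -0.58 (SE 0.22, adjusted p = 0.658). In the 3 lists, edgeR and DESeq2 called 0 of 12, 0 of 12 and 0 of 16 genes in each CR-31 comparison, and at most 2 genes of a list had an unadjusted p under 0.05.

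Idh1 went the other way in polysome mRNA of KP organoids, with 270.2, 203 and 209 CPM under vehicle and 317, 273 and 272 CPM under CR-31. The CR-31 libraries lay above all vehicle libraries, but the difference was within the test's error (0.34, 95% interval -0.20 to 0.88, adjusted p = 1). Of the 9 members, 8 had a fold change below 0 here, while 51.17% of all genes were above 0. The median of the members was -0.22 against 0.0094 over all genes. The ratios of Pgd (-0.20, -0.33 and -0.14), Rpia (-0.19, -0.042 and -0.14), Taldo1 (-0.36, -0.43 and -0.013) and Nadk (-0.16, -0.35 and -0.37) were below 0 in 3 of 3 replicates, as were those of Tkt and Pgls, and none of these 4 was called. Here and below, the share of all genes with 3 of 3 replicates on 1 side of 0 is not given. The 6 members other than Tkt, Pgls and Idh1 had log2 fold changes between -0.29 (Nadk) and -0.03 (G6pdx). In total mRNA of KP, 0 members were called by edgeR or DESeq2, as were 0% of all genes, and 0 had an unadjusted p under 0.05, beside 0.752%. Their fold changes ran from -0.18 (Rpia) to 0.16 (H6pd). In translational efficiency of KP, 0 were called by edgeR, DESeq2 or the regression (0% of all genes), and Pgls alone had an unadjusted p under 0.05 (-0.64, SE 0.27, unadjusted p = 0.031, edgeR adjusted p = 0.53), beside 5.48% of all genes. Its ratios of polysome to total mRNA under CR-31 were -0.44, 0.34 and 0.52, the first of them from the lysate whose libraries did not match. Leaving out replicate 1 of KP moved the value to -0.34 (SE 0.27, adjusted p = 1, 0.282 to 1 over all alternatives).

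In N organoids CR-31 gave 0 calls among the 9 in polysome mRNA, total mRNA and translational efficiency by edgeR and DESeq2, and in the last also by the regression, as in 0%, 0% and 0% of all genes. No member had an unadjusted p under 0.05 in any of these, beside 0.428%, 2.81% and 2.87% of all genes. Tkt had log2 ratios of -0.21, -0.27 and -0.55 in polysome mRNA, below 0 in 3 of 3 replicates (-0.37, 95% interval -0.87 to 0.14). Idh1 had 0.25, 0.32 and -0.94 and Nadk -0.17, -0.12 and 0.74, with replicate 3 opposite to the others in each. Pgd had -0.033, -0.31 and -0.57, below 0 in 3 of 3 as well (-0.35, 95% interval -0.97 to 0.27). In total mRNA Idh1 was above 0 in 3 of 3 replicates, with 0.24, 0.17 and 0.77 (0.38, 95% interval -0.052 to 0.82). Nadk was below 0 in 3 of 3 there, with -0.22, -0.039 and -0.89 (-0.43, 95% interval -1.08 to 0.21), as was Pgls, with -0.21, -0.33 and -0.13. Replicate 3 had the largest ratio of Idh1 and of Nadk in size. Leaving replicate 3 of N out gave 0 calls as well, with 0.29 (SE 0.21, adjusted p = 1, 0.977 to 1 over all alternatives) for Idh1 and -0.12 (SE 0.28, adjusted p = 1, 0.963 to 1 over all alternatives) for Nadk in polysome mRNA, and in translational efficiency it moved Idh1 from -0.52 to 0.08.

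**Figure D5:**
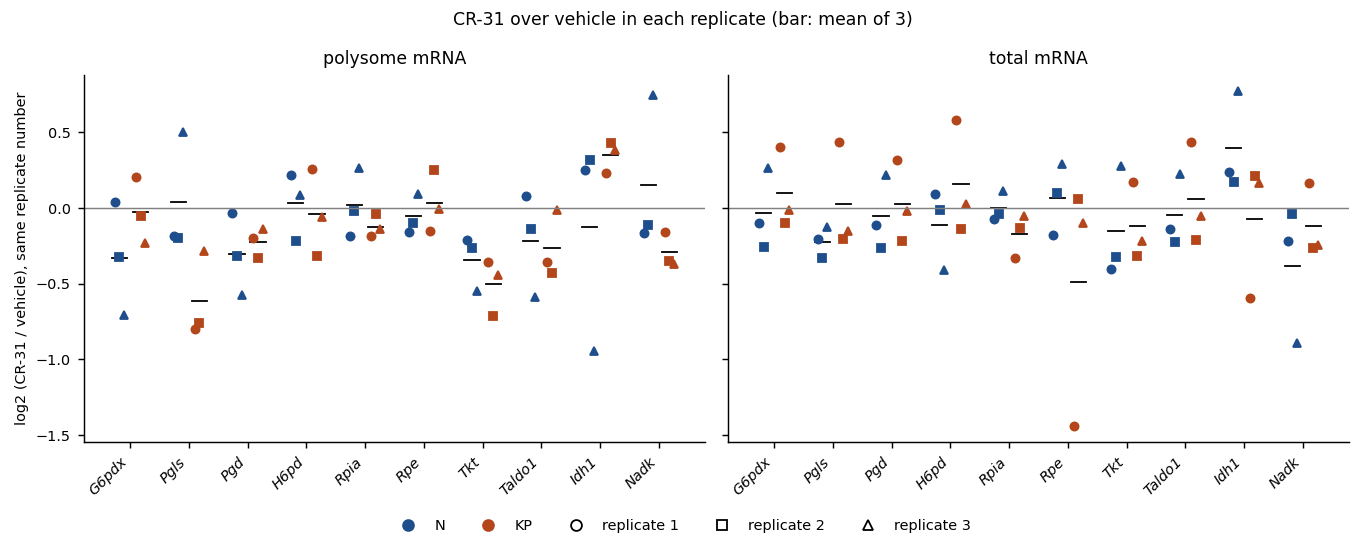
Log2 ratio of CR-31 to vehicle at the same replicate number, in polysome (left) and total mRNA (right), for N and KP organoids, with bars at the mean of 3. In polysome mRNA of KP, Tkt, Pgls, Pgd, Rpia, Taldo1 and Nadk lie below 0 in 3 of 3 replicates and Idh1 above 0. The share of all genes that did so is not given, and no member was called in the fit without the replicate block.

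The difference of the CR-31 effect between KP and N was tested as its own contrast. No member was called in polysome mRNA, total mRNA or translational efficiency by edgeR or DESeq2, or, in the last, by the regression, as in 0%, 0% and 0% of all genes. In polysome mRNA 0 members had an unadjusted p under 0.05, beside 2.06% of all genes, and Pgls was at -0.79 (SE 0.55, 95% interval -1.98 to 0.41) and Tkt at -0.14 (95% interval -0.85 to 0.57). Leaving out replicate 3 of N put Pgls at -0.45, and leaving out CR-31 replicate 3 of N alone put it at -0.16, and it was called in neither fit. In total mRNA 0 members did, beside 0.122%. In translational efficiency Pgls did, beside 10.7% of all genes, at -0.90 (SE 0.38, unadjusted p = 0.0313, edgeR adjusted p = 0.419). Without replicate 3 of N this was -0.72 (SE 0.34, adjusted p = 0.546, 0.231 to 0.874 over all alternatives). Without CR-31 replicate 2 of N, Pgls and Idh1 were called, 2 of 9 beside 16.6% of all genes. The value of Idh1 in translational efficiency was 0.93, and 0.33 when replicate 3 of N was left out. Over all alternatives the adjusted p of Pgls ran from 0.231 to 0.874. With 3 libraries per group, the intervals of the 9 members in polysome mRNA reached from -1.98 to 1.22.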

How the data were processed

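Polysome and total mRNA of 12 lysates were sequenced as paired reads of 100 bases by the authors, aligned with HISAT2 with reads of several matches discarded, and summarised per gene with RPKMforgenes. The deposited counts are whole reads per gene and the deposited RPKM values were scaled by the authors for transcript length and depth. The submitters' notes name the genome build hg38 although the entries are mouse genes, so coordinates were taken from GENCODE M21 and RefSeq on GRCm38 and no count rests on them. Counts were used for every test and RPKM for levels between genes only. All 24 count columns were mapped to samples and 0 columns were left unmapped.

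Entries of several symbols, symbols in more than 1 entry and genes with a count of 0 in any library were left out, which kept 11439 of 19895 entries. Libraries were scaled with TMM over all 24. Differences were tested with edgeR 4.0.16 (quasi-likelihood, R 4.3.3), all groups in 1 fit per fraction, Benjamini-Hochberg adjustment over all genes and a threshold of 0.25. Translational efficiency was the fraction by group term of a fit that blocked on lysate. The study used anota2seq, which was not used here. The tests were checked on simulated counts. DESeq2 1.42.0, a regression of polysome on total mRNA with limma 3.58.1, RLE and upper-quartile scaling, other count filters, lane and replicate blocks, a threshold of 0.05 and fits without each lysate or replicate number were alternatives. Keeping entries of several symbols, also without replicate 1 of KP or its CR-31 lysate, and the replicate block without replicate 1 of KP were added after seeing the data.

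Replicate numbers paired vehicle with CR-31 within N (r of 0.554 to 0.892 across genes, 6 of 6 pairs over 0.1) and KP (0.455 to 0.803, 6 of 6), and did not pair N with KP (2 of 6 over 0.1 under each treatment). All 10 member genes are reported. From each list, at most the 4 called genes with the largest change were named in each comparison, apart from Gsr and Blvra in total mRNA under CR-31. The members and lists were chosen with earlier results of these data known. The full genotype of the KP organoids is not reported here.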

Additional observations from a re-analysis of the deposited data

How the results depend on the processing

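With the replicate number as a block, members called in KP against N rose from 4 to 9 in polysome and from 3 to 6 in total mRNA under vehicle and from 3 to 7 in polysome mRNA under CR-31. Of all genes, that block called 31.7% higher and 36.7% lower in the first, 28.1% higher in the second, and 29% higher and 29.4% lower in the third. The same block gave 2 in place of 0 for CR-31 in polysome mRNA of KP (0 when replicate 1 of KP was also left out), beside 8.98% of all genes called lower. It changed no other count of calls by over 1.5 times. At a threshold of 0.05 the counts in KP against N were 2 of 4 in polysome mRNA under vehicle and 1 in each fraction under CR-31, and 0 of 2 for polysome over total mRNA in KP. DESeq2 called 1 member in place of 0 in translational efficiency of KP against N, beside 1.23% of all genes called higher. It called 4 in place of 3 in polysome mRNA of KP against N under CR-31, where it called 12.5% of all genes higher. Leaving out a lysate or a replicate number gave 2 to 6 calls in polysome mRNA of KP against N under vehicle, 2 to 6 in polysome mRNA and 2 to 6 in total mRNA under CR-31. It gave 0 to 3 in translational efficiency of KP against N, 0 to 2 in the difference of the CR-31 effect in translational efficiency, and 0 to 3 for polysome over total mRNA in N and in KP. The shares of all genes moved too. Without replicate 3 of N, 25.2% were called higher in polysome mRNA under vehicle, and 16.9% in polysome and 12.6% in total mRNA under CR-31. The same fit called 20% higher in translational efficiency and 20.7% lower in polysome over total mRNA of N. Without CR-31 replicate 2 of N, 16.6% were called in the difference of the CR-31 effect in translational efficiency.

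RLE and upper-quartile scaling, both other count filters, the lane block, the regression and the joined entries kept every count within 1.5 times. Of 3735 member values under alternatives, 3641 kept their side of the threshold, 49 passed it newly, 45 no longer passed it, and 246 changed sign, with 0 sign changes among called values. Depth was 47308461 reads or more per library, and each group held 3 cultures. The cause of the moved counts was not tested, and neither was that of the mismatch of fraction libraries in replicate 3 of N and replicate 1 of KP.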
